A study of Sus scrofa with 55 samples.

Results

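TET1, TET3, TDG, MBD2, MBD3 and MBD4, genes that act in the removal or the reading of DNA methylation, were examined in single pig oocytes. They were taken by their pig Ensembl symbols and are 6 of the 25880 gene IDs in the count table: TET1 (ENSSSCG00000010241), TET3 (ENSSSCG00000008292), TDG (ENSSSCG00000000847), MBD2 (ENSSSCG00000004528), MBD3 (ENSSSCG00000013435) and MBD4 (ENSSSCG00000033303). The cytoplasmic RNA of 55 oocytes was separated from the nuclear DNA by centrifugation and sequenced by Smart-seq2, which copies whole transcripts of 1 cell into cDNA, here with 16 PCR cycles. Antral follicles (follicles with a fluid-filled cavity) of 5 stages were sampled, and stages 1 to 5 gave 11, 12, 11, 11 and 10 oocytes in that order. The labels define the stages by number only. All donors were wild-type (WT) pubertal gilts, given in the labels as Landrace and Yorkshire, aged 208 to 210 days, and each had been injected with PMSG (5 IU), a gonadotropin from pregnant mares that makes follicles grow, 48 h before the ovaries were collected, so every group carries the hormone treatment. The 4 gilts are the replicates: gilt 201 gave 14 oocytes, gilt 205 gave 9, gilt 801 gave 12 with none at stage 5, and gilt 803 gave 20.

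TET enzymes are dioxygenases that oxidise 5-methylcytosine, and TDG is the glycosylase that cuts the more oxidised bases out of DNA so that base excision repair can put back an unmodified cytosine. MBD4 is a glycosylase too, with a methyl-CpG-binding domain, and it acts on mismatches left when methylated or unmodified cytosine is deaminated. MBD2 binds methylated CpG sites, while MBD3 has little affinity for them in mammals, and the 2 proteins are alternative subunits of the NuRD complex, which joins nucleosome remodelling to histone deacetylation. Growing oocytes lay down most of their DNA methylation before ovulation, and TET3 of the egg is known as the enzyme that oxidises 5-methylcytosine in the zygote.

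The depth of the libraries lay between 151104 and 38282850 counts (median 12139540), and the 3 shallowest, with 151104, 220085 and 343284 counts, all came from gilt 803. A count of 0 therefore allowed a level of up to 0.0784 CPM (a count scaled to the same total in every library) in the deepest library and up to 19.9 CPM in the shallowest, at 3 counts of the total. Those limits cover counting error only, since reads amplified by PCR were not tied to single molecules by identifiers. The mitochondrially encoded genes took from 2.1% to 91.8% of an oocyte's counts. The cell label was checked against marker lists: all 55 libraries held counts of the oocyte genes GDF9 and ZP3, but in 13 the summed granulosa and cumulus marker counts exceeded the summed oocyte marker counts. Of these 13 granulosa-rich libraries, 12 came from gilt 803 and 1 from gilt 801, so each call on gilt 803 below is given with and without them. The blood, immune and endothelial markers (15 of 16 measured) had medians of 20.8 CPM in gilt 803 and 9.96, 6.85 and 7.09 CPM in gilts 201, 205 and 801. Oocyte 3 of gilt 803 at stage 2 held them at 11620 CPM beside oocyte markers at 1585 CPM, and it is not among the 13.

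All 6 genes were sparse in single oocytes. TET1 had at least 1 count in 22 of 55 oocytes, TDG in 31, MBD3 in 35, TET3 in 37, MBD2 in 37 and MBD4 in 40. Of the 55 oocytes, 11 held counts of all 6 genes, and 1 (stage 3, gilt 201, oocyte 1, with 13661687 counts in all) held none of them. Mitochondrially encoded genes took 86.3% of the counts of that 1 oocyte, which left 1873240 others. The 11 oocytes with all 6 genes had from 3143757 to 36897623 counts outside the mitochondrially encoded genes. Median levels were 0 CPM for TET1, 0.205 CPM for TDG, 0.522 CPM for MBD3, 0.593 CPM for MBD2, 0.750 CPM for TET3 and 1.36 CPM for MBD4. The highest level in any oocyte was 46.1 CPM for TET3, 78.2 CPM for TET1, 98.6 CPM for MBD4, 99.8 CPM for MBD2, 103 CPM for MBD3 and 189 CPM for TDG. A few cells held much of each gene's total, from 16.8% of all MBD3 counts in 1 oocyte to 45.7% of all TET1 counts in 1 oocyte. By contrast DNMT1, the maintenance DNA methyltransferase, had counts in all 55 oocytes with a median of 1076 CPM and a range from 123 to 18379 CPM. DNMT3A, a de novo methyltransferase, had counts in 53 oocytes with a median of 37.4 CPM.

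**Figure D1:**
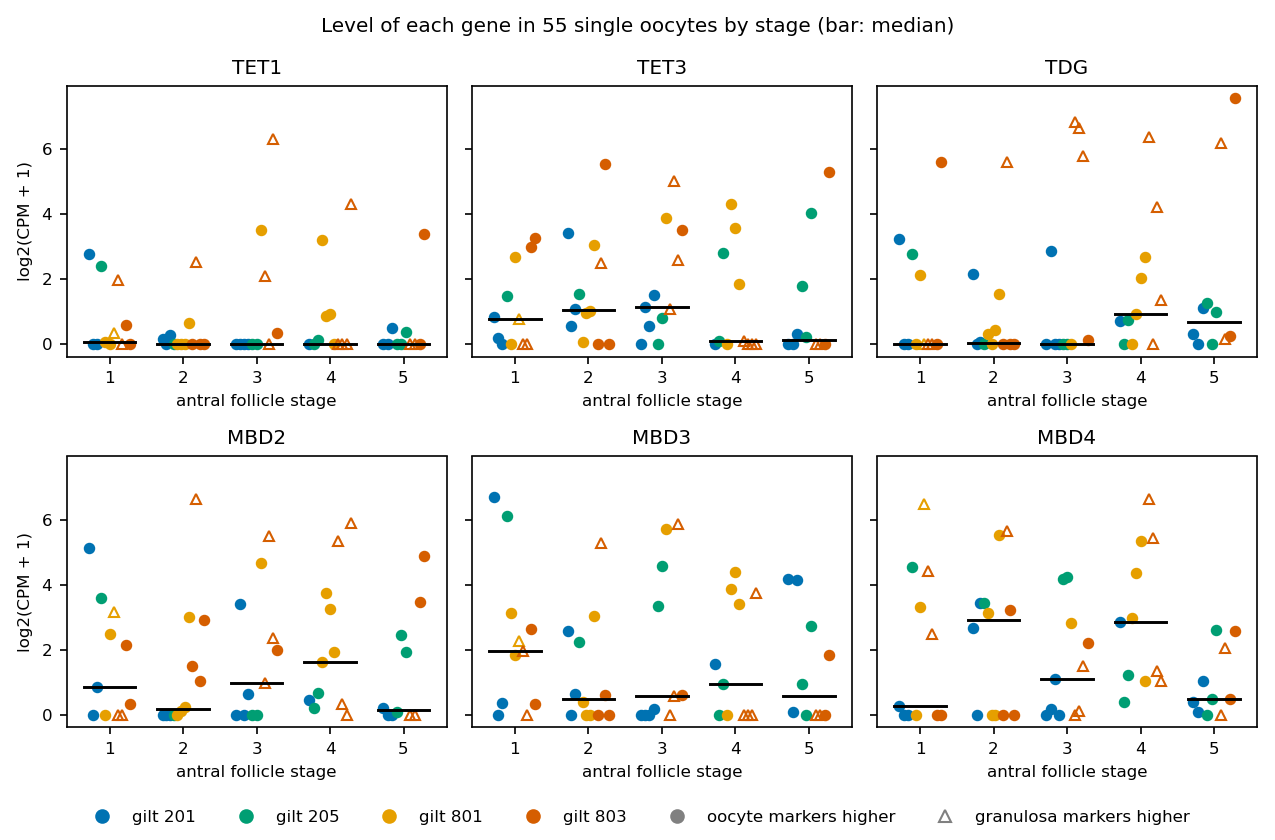
Level of each gene in each of the 55 oocytes, as log2(CPM + 1), against antral follicle stage; colour gives the gilt, open triangles are the 13 granulosa-rich libraries and the bar is the stage median. Most oocytes lie near 0 at every stage, and the TDG points above 10 CPM, over all counts, are all from gilt 803.

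Of the 2 oxidases, TET3 was found in more oocytes. TET3 had counts in 7 of 11, 10 of 12, 9 of 11, 6 of 11 and 5 of 10 oocytes from stage 1 to stage 5. Its levels reached from 0 to 8.64 CPM at stage 1 with a median of 0.700, from 0 to 46.1 at stage 2 with a median of 1.07 (the highest in the oocyte rich in blood and immune markers), and from 0 to 31.4 at stage 3 with a median of 1.23. At stage 4 they ran from 0 to 18.8 CPM with a median of 0.0628, and at stage 5 from 0 to 38.4 CPM with a median of 0.0886. Every stage held oocytes at 0, so the 5 stages overlapped throughout. TET1 had counts in 6 of 11, 4 of 12, 4 of 11, 5 of 11 and 3 of 10 oocytes from stage 1 to stage 5, and its highest values by stage were 5.93, 4.76, 78.2, 18.7 and 9.49 CPM. The stage 3 maximum was 1 granulosa-rich oocyte of gilt 803, and the next stage 3 oocyte stood at 10.6 CPM. A comparison between genes needs a value per transcript length, which the second deposited table gives for 5 of the 6 genes (not for TDG) on a scale that the sources do not state. On that scale TET3 stood above TET1 in 32 oocytes and below it in 9, with 14 tied, and the medians were 0.0612 for TET3 and 0 for TET1, against 55.3 for DNMT1.

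The 2 glycosylases differed in where they were found. MBD4 had counts in 6 of 11, 7 of 12, 8 of 11, 11 of 11 and 8 of 10 oocytes in the order of the stages. Stage 4, where every oocyte held it, was also the stage with the lowest median mitochondrially encoded share (9.05%). Its stage medians were 0.194, 6.59, 1.15, 6.23 and 0.411 CPM, and its stage maxima 89.3, 49.1, 17.8, 98.6 and 5.12 CPM. No stage 5 oocyte thus exceeded 5.12 CPM, while each earlier stage had oocytes above 10 CPM. The ranges still overlapped, because low values occurred at every stage. Gilt 801 gave no stage 5 oocytes, and its counts summed per stage held MBD4 at 17.8, 20.9, 6.14 and 24.7 CPM at stages 1 to 4. TDG had counts in 4 of 11, 6 of 12, 5 of 11, 8 of 11 and 8 of 10 oocytes from stage 1 to stage 5. Its stage medians were 0, 0.0276, 0, 0.908 and 0.614 CPM, and its stage maxima 48.3, 47.6, 114, 82.1 and 189 CPM. All 5 of these maxima came from gilt 803.

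MBD2 and MBD3, the NuRD subunits, had no stage in common for their highest level. MBD2 had counts in 7 of 11, 7 of 12, 7 of 11, 10 of 11 and 6 of 10 oocytes from stage 1 to stage 5, with stage medians of 0.819, 0.130, 0.977, 2.09 and 0.104 CPM and stage maxima of 34.0, 99.8, 44.2, 59.1 and 28.7 CPM. MBD3 had counts in 9 of 11, 7 of 12, 7 of 11, 6 of 11 and 6 of 10 oocytes, with stage medians of 2.91, 0.413, 0.496, 0.932 and 0.492 CPM and stage maxima of 103, 37.8, 58.1, 20.1 and 17.1 CPM. Per transcript length MBD3 stood above MBD2 in 28 oocytes and below it in 19, with 8 tied.

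To compare the stages over animals, counts were summed per gilt and stage, which gave 19 sums, and were scaled with TMM factors, which correct library size for composition. The question was whether each gene differed among the 5 stages. No member passed. All 6 genes passed the filter on low counts, although TET1 stood at 0 in 4 of the 19 sums, TDG and MBD2 in 3 each, and TET3 in 1. In edgeR's quasi-likelihood F test over the stages, with gilt as a block, 0 of 6 members had an adjusted p under 0.05 (the rule for a call) or an unadjusted p under 0.05, and each adjusted p was 0.9996. Over the 15637 genes tested that comparison called 0%, with 5.37% at an unadjusted p under 0.05, so the members' count equals the background. DESeq2 on the same sums called 46 genes in the stage test and limma on the length-scaled table called 0, and neither called a member. The length-scaled columns were not rescaled to a common sum. Of the 5 members in that table, the medians over oocytes ran from 0 to 0.101, against the 1 added before taking logs. The absence of limma calls thus says little about the members.

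The gilts differed widely within most stages. TET3 averaged 2.06 ± 2.50, 4.30 ± 1.93, 5.84 ± 4.70, 1.96 ± 2.35 and 5.98 ± 5.68 TMM-scaled CPM from stage 1 to stage 5 (SD over gilts, n = 4, and n = 3 at stage 5). TET1 averaged 1.23 ± 1.5, 0.402 ± 0.512, 4.07 ± 5.06, 0.639 ± 0.962 and 1.11 ± 1.52 on the same scale. In both oxidases the SD was close to or above the mean at most stages. TDG averaged 5.4 ± 6.23, 3.45 ± 5.39, 12.3 ± 22.0, 3.21 ± 4.62 and 23.0 ± 37.9, so that at every stage its SD exceeded its mean. MBD4 averaged 5.96 ± 7.76, 15.3 ± 5.18, 9.60 ± 15.8, 9.08 ± 6.04 and 1.67 ± 0.308. At stage 5 the 3 gilts with oocytes lay close together for MBD4, at 1.32, 1.79 and 1.90. MBD2 averaged 6.69 ± 8.62, 6.46 ± 11.8, 8.61 ± 6.68, 3.57 ± 4.68 and 4.07 ± 4.74, and MBD3 averaged 21.4 ± 25.8, 5.67 ± 3.78, 17.2 ± 15.6, 2.74 ± 1.99 and 11.3 ± 17.1.

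A steady change over the stages was asked for with stage as a number, and the fitted log2 changes per stage were -0.58 ± 0.467 (SE) for TET1, 0.17 ± 0.426 for TET3, -0.04 ± 0.271 for TDG, -0.26 ± 0.388 for MBD2, -0.36 ± 0.320 for MBD3 and -0.23 ± 0.409 for MBD4. None was called by edgeR (adjusted p 0.99995 for each member, 0 of 6 at an unadjusted p under 0.05), against 0.0128% of all genes called and 5.76% at an unadjusted p under 0.05. For stage 5 against stage 1 the log2 differences were -2.36 ± 2.22 for TET1, 1.47 ± 1.75 for TET3, -0.10 ± 1.4 for TDG, -1.32 ± 2.02 for MBD2, -1.30 ± 1.41 for MBD3 and -0.80 ± 1.75 for MBD4, again with 0 of 6 called by edgeR and 0 of 6 at an unadjusted p under 0.05, against 0% of all genes called and 5.37% at an unadjusted p under 0.05. DESeq2 and limma also called no member in the trend or at stage 5 against stage 1. These standard errors of 1.4 to 2.22 log2 units leave room for large stage differences that could not be detected here.

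Between neighbouring stages edgeR called 0% of all genes in each of the 4 steps, and 0 of the members; 1 of the 24 member values had an unadjusted p under 0.05, as did 6.61% of all genes at stage 2 against stage 1, 4.66% at stage 3 against stage 2, 4.13% at stage 4 against stage 3 and 2.98% at stage 5 against stage 4. That was MBD3 at stage 4 against stage 3, with a log2 difference of -2.98 ± 1.34 (unadjusted p = 0.0353, adjusted p = 0.998, edgeR). In the stage 3 sums MBD3 stood at 0.154 in gilt 201, 32.0 in gilt 205, 28.8 in gilt 801 and 7.78 in gilt 803, in TMM-scaled CPM. In the stage 4 sums it stood at 4.54, 0.719, 4.35 and 1.35 in the same gilts. It was thus lower at stage 4 in 3 of 4 gilts and higher in gilt 201, and the 2 stages overlapped. DNMT1 and DNMT3A were not called either, and had stage F tests with an adjusted p of 0.9996 each, and log2 differences at stage 5 against stage 1 of 1.08 ± 0.852 and 1.62 ± 0.788.

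**Figure D2:**
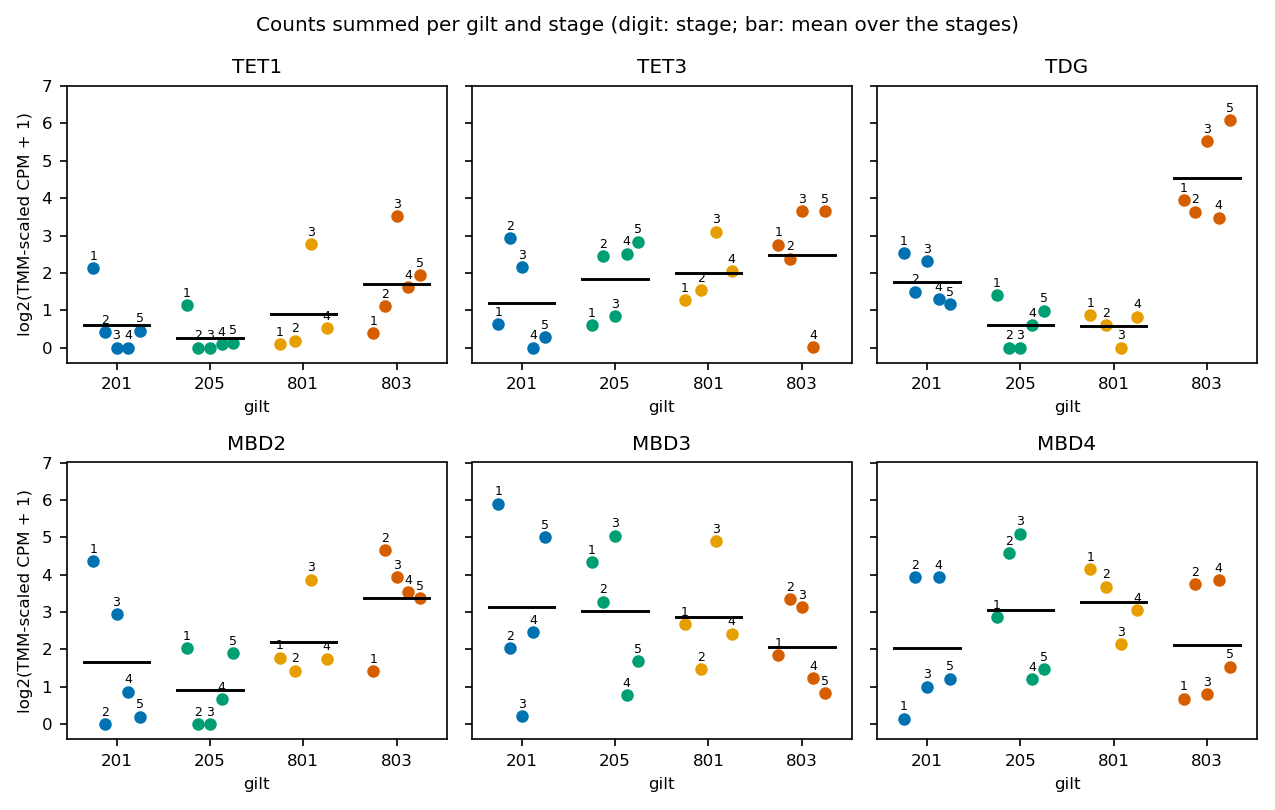
Counts summed per gilt and stage, as log2(TMM-scaled CPM + 1), for each gene; each point is 1 sum, the digit beside it is the stage and the bar is the mean of the log2 values of a gilt. For TDG the 5 sums of gilt 803 (10.1 to 66.7 TMM-scaled CPM) lie above all sums of the other gilts (0 to 4.73), while for the other 5 genes the gilts overlap. How many of all genes lie apart like TDG was not counted.

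The animals differed in 1 member, TDG. Its sums in gilt 803 were 14.4, 11.4, 45.2, 10.1 and 66.7 TMM-scaled CPM from stage 1 to stage 5. In gilt 201 they were 4.73, 1.82, 4.00, 1.44 and 1.25, in gilt 205 they were 1.64, 0, 0, 0.523 and 0.989, and in gilt 801 they were 0.825, 0.519, 0 and 0.771 for stages 1 to 4. The 5 sums of gilt 803 did not overlap with the 14 others at any stage. How many of all genes lie apart in this way was not counted, and 4.4% of them were called higher in gilt 803 in the contrast below. Averaged over stages, TDG stood at 29.6 ± 25.3 (SD, n = 5 stages) in gilt 803, 2.65 ± 1.60 in gilt 201, 0.630 ± 0.698 in gilt 205 and 0.529 ± 0.377 in gilt 801. The F test over gilts, with stage in the model, gave F = 8.92 and an adjusted p of 0.0249 for TDG by edgeR, and 2.17% of all genes were called. The other 5 members had adjusted p values from 0.559 (MBD2) to 0.915 (TET3).

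In a contrast added after the data were seen, of gilt 803 against the mean of the other gilts, TDG was higher by 4.93 ± 0.969 log2 units (adjusted p = 0.00317, edgeR), against 4.68% of all genes called, 4.4% higher and 0.281% lower in that gilt. At an unadjusted p under 0.05 stood 3 of 6 members (TDG, MBD2 and TET1), against 17.3% of all genes. Since the contrast was picked because gilt 803 stands apart, it describes that animal. MBD2 had a difference of 3.06 ± 1.36 (adjusted p = 0.231), TET1 of 3.08 ± 1.41 (adjusted p = 0.246) and TET3 of 1.23 ± 1.26 (adjusted p = 0.688). MBD3 and MBD4 had differences of the other sign, -1.41 ± 1.07 and -1.04 ± 1.11, with adjusted p values of 0.543 and 0.704. Without the 13 granulosa-rich libraries these differences were 0.57 ± 1.49 for MBD2, -0.46 ± 2.86 for TET1, 2.06 ± 1.12 for TET3, -4.08 ± 1.33 for MBD3 and -1.65 ± 1.46 for MBD4, and none was called. Neither the F test nor the contrast called TDG without the 13 granulosa-rich libraries (adjusted p = 0.871 and 0.860, and a difference of 1.99 ± 1.78). That fit had 18 sums and lacked 12 of the 20 oocytes of gilt 803, so the loss of libraries and the granulosa content cannot be told apart. Without gilt 205 the adjusted p values were 0.152 and 0.0510, with a difference of 4.32 ± 1.06, and without gilt 803 itself the F test gave 0.879.

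Within gilt 803, measured TDG ran from 0 to 189 CPM from cell to cell. At stage 1 its 4 oocytes stood at 0, 0, 0 and 48.3 CPM, at stage 2 at 0, 47.6, 0 and 0, and at stage 3 at 114, 101, 54.7 and 0.0869. At stage 4 they stood at 82.1, 0, 17.6 and 1.56 CPM, and at stage 5 at 72.1, 0.118, 0.205 and 189. Some of these zeros came from shallow libraries and leave the level open. At 3 counts of the total, a 0 allowed up to 8.74 and 13.6 CPM in oocytes 1 and 2 of stage 1. In oocytes 1 and 4 of stage 2 it allowed up to 2.70 and 19.9 CPM. As measured, 9 of 20 oocytes of gilt 803 lay above 10 CPM, while none of the 35 oocytes of the other gilts exceeded 8.36 CPM. These CPM are over all counts, of which the mitochondrially encoded genes took a median of 11.5% in gilt 803 and 83.9%, 85.3% and 67.6% in gilts 201, 205 and 801. Over the counts outside those genes, 9 of 20 oocytes of gilt 803 and 4 of the 35 others lay above 10 CPM, with highest values of 283 and 31.0 CPM. Without the mitochondrially encoded genes TDG was still called in the gilt test (adjusted p = 0.0279, edgeR) and in the contrast (4.92 ± 0.974, adjusted p = 0.00356). Of these 9 oocytes, 7 were granulosa-rich, out of 12 granulosa-rich oocytes in that gilt, whose TDG levels ran from 0 to 114 CPM with a median of 32.6. The other 2, out of 8, were oocyte 4 of stage 1 and oocyte 4 of stage 5. Oocyte 4 of stage 1 held summed granulosa and cumulus markers at 10499 CPM beside oocyte markers at 18233 CPM, and oocyte 4 of stage 5 held them at 1107 CPM beside 4781 CPM. That last oocyte carried 35.5% of all TDG counts in the study, and without it TDG was still called in the gilt test (adjusted p = 0.0216) and in the contrast (4.98 ± 0.987, adjusted p = 0.00253). Without the oocyte rich in blood and immune markers, which held no TDG count, the values were 0.0235 and 4.97 ± 0.968 (adjusted p = 0.00298, edgeR). Over the whole granulosa and cumulus list (24 of 27 genes measured, 22 with counts in gilt 803), the summed level ran from 38.0 to 32333 CPM in gilt 803 with a median of 6298, against medians of 199, 142 and 339 CPM in gilts 201, 205 and 801. The theca and stroma list (16 genes) had medians of 337 CPM in gilt 803 and 27.3, 69.8 and 53.8 CPM in the others. The part of these cells' RNA in the TDG difference was not tested.

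**Figure D3:**
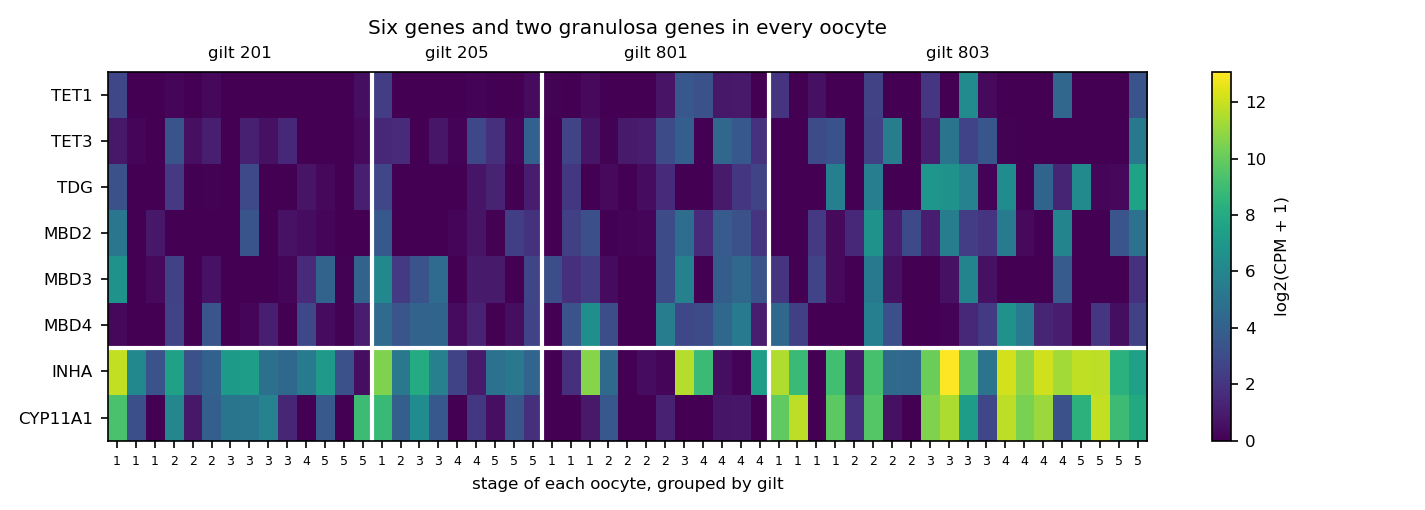
Level of the 6 genes and of INHA and CYP11A1 in every oocyte, as log2(CPM + 1), with oocytes in columns, grouped by gilt and marked with their stage. INHA and CYP11A1 are bright over many oocytes of gilt 803, and TDG is bright in some of the same columns but dark in others.

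INHA, a subunit of inhibin, and CYP11A1, the enzyme that starts steroid synthesis from cholesterol, are made by granulosa cells. They served here as markers of granulosa RNA in an oocyte library. The theca and stroma list also had a higher median in gilt 803, and whether CYP11A1 came in part from such cells was not tested. The 2 genes did not always go together: in the stage 3 sum of gilt 801 INHA stood at 3184 CPM and CYP11A1 at 0 CPM. Their mean is thus not a measure of granulosa RNA in every library. INHA had counts in 52 oocytes with a median of 50.6 and a maximum of 8602 CPM, and CYP11A1 had counts in 42 oocytes with a median of 10.1 and a maximum of 3745 CPM. CYP11A1 differed between gilts (adjusted p = 0.00736, edgeR) and stood at 555 ± 302 TMM-scaled CPM in gilt 803 (SD, n = 5 stages), 192 ± 198 in gilt 201, 49.3 ± 52.3 in gilt 205 and 0.554 ± 0.918 in gilt 801 (n = 4 stages). ZP3, a zona pellucida protein, and GDF9, an oocyte growth factor, stood lower in gilt 803, with differences of -4.30 ± 0.968 and -3.38 ± 0.743 log2 units (adjusted p = 0.00859 and 0.00730, edgeR). CYP11A1 was not called between gilts without gilt 801 (adjusted p = 0.139, edgeR) or without gilt 803 (0.0924), while ZP3 and GDF9 kept their call in that contrast without each of the other gilts in turn. Without the granulosa-rich libraries none of these 3 genes was called: CYP11A1 had an adjusted p of 0.860 between gilts, and ZP3 and GDF9 differences of -2.88 ± 0.898 and -2.10 ± 0.730 (adjusted p = 0.668 for both). INHA was not called in either gilt comparison (adjusted p = 0.205 in the F test, and a difference of 2.98 ± 0.883 with an adjusted p of 0.0501 in gilt 803 against the others, edgeR), and without the granulosa-rich libraries its difference was -1.81 ± 1.30.

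The relation of each member to these 2 granulosa genes was first fitted over the 19 sums, with stage and gilt in the model. The slope gives the log2 change of a gene for each unit of the mean log2(CPM + 1) of INHA and CYP11A1, which ran from 1.73 to 11.3 over the sums. No member passed. The slopes were 0.99 ± 0.507 (SE) for TET1, -0.46 ± 0.386 for TET3, 0.06 ± 0.329 for TDG, 0.32 ± 0.524 for MBD2, 0.52 ± 0.289 for MBD3 and 0.06 ± 0.360 for MBD4. Their adjusted p values ran from 0.571 (TET1) to 0.983 (MBD4) in edgeR, 0 of 6 had an unadjusted p under 0.05, and 0.0064% of all genes were called, with 9.03% at an unadjusted p under 0.05. On the same scale the slopes of ZP3 and GDF9 were -0.63 ± 0.159 and -0.52 ± 0.144 (adjusted p = 0.233 and 0.275), and that of DNMT1 was -0.15 ± 0.155.

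The slopes depended on the fit. TET1 was called by DESeq2 (adjusted p = 0.0335), which called 782 of 15637 genes. MBD3 was called by limma on the length-scaled table (slope 0.56, adjusted p = 0.0321), which called 3007 of 18459 genes. Of these, 2992 had a positive slope and 15 a negative one. The columns of that table do not share a sum and were not rescaled. A slope there cannot be told apart from differences in column sum. TDG was called with gilt left out of the model (slope 0.69 ± 0.176, adjusted p = 0.0224), against 716 of 15637 genes called. It was called too when the oocytes entered singly as libraries (slope 0.67, adjusted p = 0.0249), against 1065 of 12041 genes called. That fit treats oocytes of the same 4 animals as replicates. With gilt in the model TDG's slope over the sums was 0.06, and gilt 803, where its sums were high, also had high CYP11A1.

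**Figure D4:**
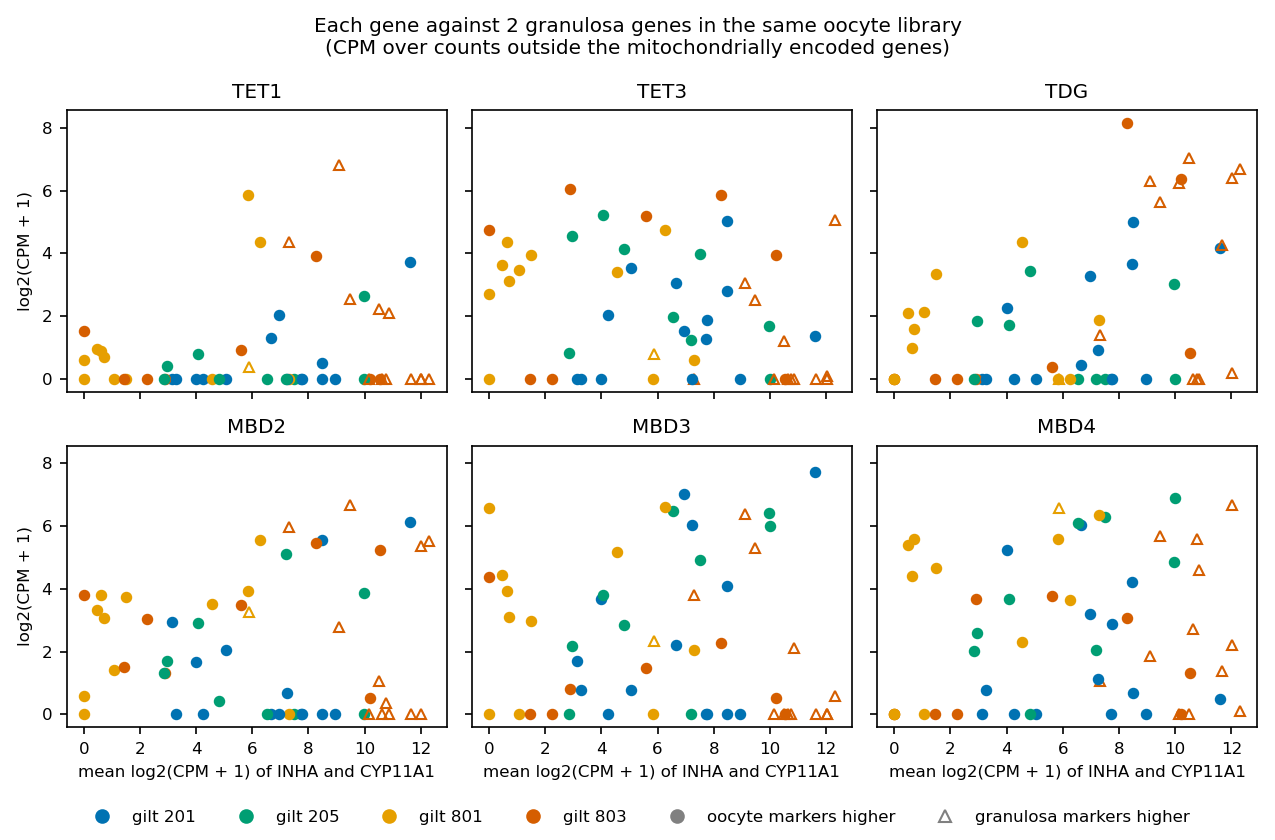
Level of each gene against the mean level of INHA and CYP11A1 in the same oocyte, both as log2(CPM + 1) over the counts outside the mitochondrially encoded genes; colour gives the gilt and open triangles are granulosa-rich libraries. The highest TDG points are all of gilt 803, where TET1 has its highest point too, while TET3 has high points on both sides.

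Across the 55 oocytes, levels were ranked as CPM over the counts outside the mitochondrially encoded genes, since the mitochondrial share varied so widely. Spearman's rho with the mean of INHA and CYP11A1 was 0.352 for TDG, 0.131 for MBD4, -0.002 for TET1, -0.074 for MBD2, -0.159 for MBD3 and -0.273 for TET3. These values describe cells that share animals and differ in depth, so no p is given, and many oocytes are tied at 0. Among 7055 genes with a mean of at least 10 CPM the median rho was -0.112, with quartiles of -0.287 and 0.0912, and TDG lay at percentile 93.4 while TET3 lay at 27.0. Among 6647 genes with a mean from 2 to 20 CPM, closer to the members' levels, the median was -0.144, TDG lay at percentile 98.6, MBD4 at 89.2 and TET3 at 24.3. For TDG the value without gilt 803 was 0.068 over 35 oocytes, and without the granulosa-rich libraries it was 0.256 over 42. Within single gilts it was 0.458 in gilt 201, -0.164 in gilt 205, 0.051 in gilt 801 and 0.306 in gilt 803. For MBD4, whose pooled rho was low, the within-gilt values were -0.016, 0.700, 0.550 and 0.328 in the same order, over 14, 9, 12 and 20 oocytes. TET3 had values of 0.245, -0.433, -0.005 and -0.285, and MBD3 of -0.016, 0.611, -0.081 and -0.390, so neither kept 1 sign in all 4 gilts. TDG and MBD2 also ran against the mitochondrially encoded share, with a rho of -0.391 and -0.384, and MBD3 ran with total counts, with a rho of 0.334.

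**Figure D5:**
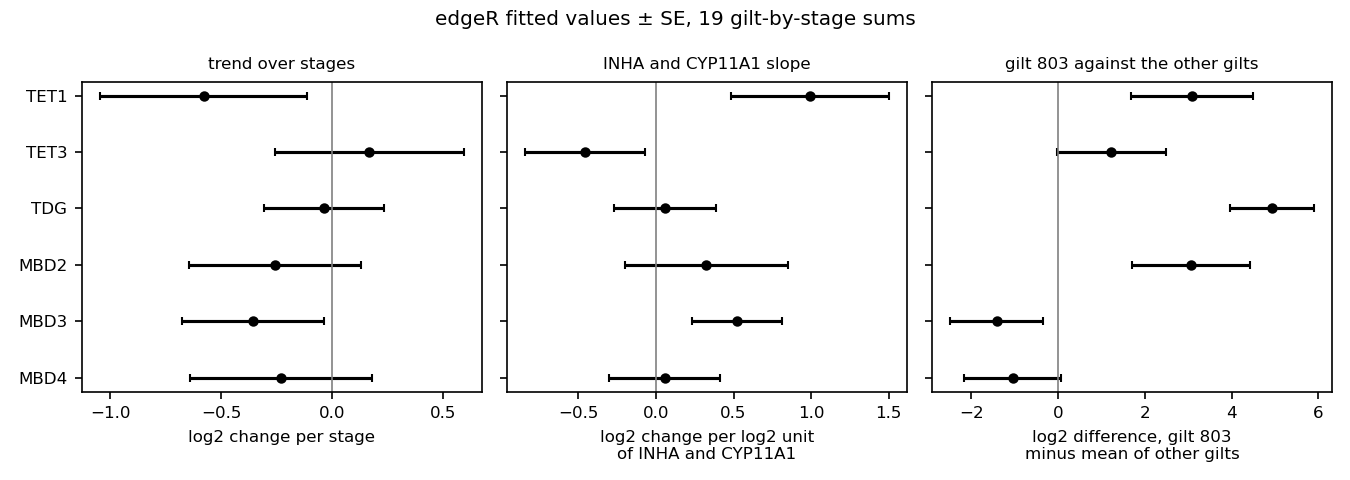
Fitted value of each gene with its standard error from edgeR over the 19 sums, for the trend over stages (log2 change per stage), the INHA and CYP11A1 slope (log2 change per log2 unit) and gilt 803 against the mean of the other gilts (log2 difference). Only the TDG difference in the last panel, 4.93 ± 0.969, was called.

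Among themselves the 6 genes were loosely related over the oocytes. TET1 and MBD3 had the highest rho of any pair of members, 0.521, and 20 of the 22 oocytes with TET1 counts also held MBD3 counts. TET1 and MBD2 had a rho of 0.393, and MBD3 and MBD4 of 0.361. TDG and MBD4, the 2 glycosylases, had a rho of 0.022 and occurred together in 26 oocytes, TDG alone in 5 and MBD4 alone in 14. MBD2 and MBD3 had a rho of 0.163 and TET1 and TET3 of 0.248. Outside the list, TET3 had a rho of 0.461 with DNMT1, against -0.119 for TDG. The oocytes differ in depth, and the rho with total counts was 0.066 for TET1, 0.241 for TET3, 0.082 for TDG, -0.010 for MBD2 and 0.220 for MBD4, beside the 0.334 of MBD3. Total counts include the mitochondrially encoded ones. The counts outside those genes ran from 139240 to 36897623, and the rho with them was not computed. The part of depth in the relations between members and in their joint detection was not tested.

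The genes with the most similar ranks over the 55 oocytes were sought among 6266 named genes with a mean of at least 10 CPM. They were RHOBTB1 (rho 0.702), AGPAT1 (0.671) and RSRP1 (0.644) for TET1, and KSR2 (0.721), RCBTB1 (0.721) and CDCP1 (0.710) for TET3. For TDG they were CAPN2 (0.706), a calpain protease, IFNGR2 (0.697), a chain of the interferon gamma receptor, and SLC6A4 (0.694), the serotonin transporter. They were ARAF (0.736), a RAF kinase, ARHGAP21 (0.700) and ARHGAP26 (0.684) for MBD2, GNPNAT1 (0.675), SNX14 (0.645) and SLC35F5 (0.634) for MBD3, and PIGH (0.626) and GCN1 (0.586) for MBD4. As the highest of many values, these are descriptions of likeness in this set of cells.

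The other genes of the pathway were taken from 3 lists. Of 40 genes of 5-methylcytosine oxidation and base excision repair, 31 were tested, and none was called in any stage comparison or in the slope by edgeR. In the F test over stages 3 of the 31 had an unadjusted p under 0.05, against 5.37% of all genes, and the smallest adjusted p was 0.820, for GADD45B. In the slope 2 of the 31 had an unadjusted p under 0.05, against 9.03% of all genes. GADD45A and GADD45B, stress-induced proteins linked to repair-based demethylation, were called in the gilt F test (adjusted p = 0.0430 and 0.0176), where 2.17% of all genes were called. In the contrast of gilt 803 with the others 19 of the 31 were positive and 12 negative (9 and 21 of the 30 tested without the granulosa-rich libraries), the median was 0.56 against 0.11 over all genes, and 3 were called, all higher, where 4.4% of all genes were called higher. GADD45B was higher by 6.10 ± 1.16 log2 units (adjusted p = 0.00235, edgeR) and GADD45A by 5.20 ± 1.11 (0.00561). Without the granulosa-rich libraries their differences were -1.48 ± 3.12 and -1.60 ± 2.61, and no gene of the list was called (adjusted p = 0.967 and 0.954 for these 2). Without gilt 205 neither was called in the contrast (adjusted p = 0.0760 for GADD45B and 0.127 for GADD45A) or in the gilt F test (0.188 and 0.322), and without gilt 803 neither was called in the F test (0.776 and 0.790). The F test also did not call GADD45A without gilt 201 (0.0526) or without gilt 801 (0.0706). GADD45B also had a slope of 1.14 ± 0.269 on INHA and CYP11A1 (adjusted p = 0.233). IDH2, a mitochondrial isocitrate dehydrogenase that makes the TET cofactor 2-oxoglutarate, had a slope of 0.61 ± 0.224 (adjusted p = 0.406), and QSER1, reported to guard regions from methylation together with TET1, of 0.42 ± 0.226 (0.602). IDH1, its cytosolic relative, had a stage F of 2.06 (adjusted p = 0.9996).

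Of 30 genes for methyl-CpG readers and the NuRD complex, 27 were tested, and none was called by edgeR over stages or in the slope. At an unadjusted p under 0.05 stood 0 of the 27 in the stage F test, against 5.37% of all genes. In the slope 4 of the 27 did, against 9.03% of all genes. HDAC1, the deacetylase, and MTA2, a scaffold of NuRD, were called in the gilt F test (adjusted p = 0.00902 and 0.0303), where 2.17% of all genes were called. HDAC1 stood at 249 ± 153 TMM-scaled CPM in gilt 803 (SD, n = 5 stages), 65.2 ± 64 in gilt 201, 20.4 ± 13.3 in gilt 205 and 23.1 ± 17.1 in gilt 801. MTA2 stood at 47.0 ± 18 in gilt 803, 9.21 ± 14.5 in gilt 201, 2.61 ± 3.90 in gilt 205 and 0.581 ± 0.432 in gilt 801. Against the mean of the other gilts they were higher in gilt 803 by 3.33 ± 0.580 and 5.00 ± 1.02 log2 units (adjusted p = 0.00114 and 0.00402). They were the only 2 of 27 called, where 4.68% of all genes were called and 4.4% called higher. Without the granulosa-rich libraries the differences were 0.83 ± 0.821 and 0.64 ± 1.83 (adjusted p = 0.879 and 0.981). Without gilt 205 the contrast still called both (adjusted p = 0.0222 and 0.0317), while the F test did not (0.0635 and 0.0874), nor did it without gilt 803 (0.965 and 0.964). GATAD2B, another NuRD subunit, and SIN3A, the scaffold of a different deacetylase complex, had slopes of -0.43 ± 0.152 and -0.32 ± 0.124 on INHA and CYP11A1 (adjusted p = 0.393 and 0.422), and HDAC1 one of 0.37 ± 0.172 (0.525). BAZ2A, a subunit of the complex that silences ribosomal DNA, and ZBTB33, a zinc finger protein that binds methylated DNA, had stage F values of 2.21 and 1.43 with adjusted p values of 0.989 and 0.9996.

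Of 18 DNA methyltransferases and their guides, 13 were tested, and none was called by edgeR in any comparison, where at most 4.68% of all genes were called. At an unadjusted p under 0.05 stood 0 of the 13 in the stage F test and 3 in the slope, against 5.37% and 9.03% of all genes. Against the granulosa genes 12 of 13 had a negative slope, with a median of -0.26 where all genes had a median of 0.05, and in the trend over stages 12 of 13 were positive, with a median of 0.18 against -0.06. UHRF2, USP7 and UHRF1, partners of DNMT1, had slopes of -0.34 ± 0.134, -0.27 ± 0.119 and -0.43 ± 0.200 (adjusted p = 0.437, 0.501 and 0.519). ZNF445, a zinc finger protein of imprint maintenance, had a stage F of 1.2 (adjusted p = 0.9996). In gilt 803 against the others 1 of 13 was positive and 12 were negative, with a median of -0.71 against 0.11 over all genes. Without the granulosa-rich libraries 7 of the 12 genes then tested were positive and 5 negative, with a median of 0.10 against -0.16 over all genes.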

How the data were processed

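The authors deposited an unnormalized count table (genes by oocytes, whole numbers). The submitters' processing notes name StringTie 1.2.2, featureCounts, HISAT2 2.1.0 and Trim Galore 0.4.3. Build and annotation are not given in the sources, and no positions are printed. A further table of the authors carries the name TPM, but its columns sum to between 40073 and 2990163, so its unit is unstated; it held 23498 genes without TDG and served as an alternative and for levels per length. Symbols came with a gene name table and matched 14857 of 25880 IDs.

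For each gilt and stage the oocytes' counts were added (19 sums), and edgeR 4.0.16 under R 4.3.3 gave the tests (TMM, filterByExpr by stage, glmQLFit, glmQLFTest; stage and gilt in the model; two-sided). Benjamini-Hochberg adjustment ran over 15637 genes, with calls at an adjusted p under 0.05. The common biological coefficient of variation was 1.24. The fitting script was tested on simulated data. DESeq2 1.42.0 and limma 3.58.1 were alternatives, the latter on log2(value + 1) with the columns not rescaled. Further alternatives were other scalings, no filter, oocytes as libraries and left-out gilts or libraries. CPM per oocyte used all counts. Sums of the same gilt come from the same animal, named in the labels, so gilt is a block: the mean correlation of their deviations from stage means was 0.0124, 0.136, 0.141 and 0.133 in gilts 201, 205, 801 and 803, against -0.0318 between gilts.

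The members and lists were chosen with earlier results of these data known. Named genes were the members, INHA, CYP11A1, GDF9, ZP3, DNMT1 and DNMT3A, list genes called in a comparison, up to 3 genes per list, with at least 10 CPM on average, with the smallest p in the slope and in the stage test, and 3 genes most like each member; 2 genes that this rule names are not reported here. DNA methylation, somatic cells and culture experiments were not analysed here.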

Additional observations from a re-analysis of the deposited data

Results flagged for a closer look

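Each gene was looked at in the 4 gilts of stages 1 to 4, as TMM-scaled CPM of the sums. It was also looked at in the 10 oocytes of stage 5, as CPM. A value that stands apart from the rest was sought by Dixon's test, which flags about 1 in 20 groups by chance if values are normally distributed. The levels here are sparse and skewed, and the oocytes share gilts, so the number flagged cannot be set against that rate. Of 30 groups, 10 held such a value. TDG in gilt 803 stood at 11.45 at stage 2, 45.24 at stage 3 and 10.12 at stage 4, where the other gilts reached 1.82, 4.00 and 1.44. MBD2 stood at 24.14 in gilt 803 at stage 2, where the other gilts reached 1.70, and at 19.59 in gilt 201 at stage 1, where they reached 3.07. MBD4 stood at 33.28 in gilt 205 at stage 3, where the other gilts reached 3.39.

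The remaining 4 values all came from 1 oocyte, oocyte 4 of gilt 803 at stage 5, with 21707228 counts in all. It held TET1 at 9.49, TET3 at 38.42, TDG at 188.9 and MBD2 at 28.75 CPM, where the other 9 oocytes of the stage reached 0.412, 15.6, 72.1 and 10.0 CPM. MBD3 and MBD4 were not set apart in it.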

How the results depend on the processing

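No stage comparison called a member under any alternative run. The members' trends over stages, all small against their errors, changed sign in 14 of 95 alternative fits. Trends of the other sign were 0.00646 (limma on the length-scaled table) and 0.0328 (no replicate block) for TET1, -0.0311 for TET3, 0.377 for TDG and 0.0802 for MBD2 with each oocyte as a library, 0.453 for TDG with no replicate block, and 0.0219, 0.0102 and 0.0325 for TDG, MBD2 and MBD4 without granulosa-rich libraries. Leaving out each gilt in turn gave trends from -0.0764 (without gilt 205) to 0.415 for TET3, -0.203 to 0.0943 for TDG (0.0243 without gilt 205) and -0.501 to 0.0835 for MBD2. Without oocyte 4 of gilt 803 at stage 5 the trend of TET3 was -0.160.

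With no replicate block (gilt left out) the slope on INHA and CYP11A1 called 1 member, TDG, where 0 were called with it, and turned to 0.00643 for TET3 and -0.0740 for MBD4; the block changed no other count of members called. DESeq2, each oocyte as a library and limma on the length-scaled table each called 1 member in the slope, as given above. Without mitochondrially encoded genes TDG's slope was -0.105, and without granulosa-rich libraries that of MBD4 was -0.0658. Leaving out each gilt gave slopes from -0.243 to 0.160 for TDG, -0.803 to 0.710 for MBD2 (-0.138 without gilt 801) and -0.297 to 0.575 for MBD4 (-0.220 without gilt 205).

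The gilt F test called 1 member, and 0 under limma (TDG is not in that table), 0 without granulosa-rich libraries and 0 to 1 when each gilt was left out (0 without gilt 205 or gilt 803). The contrast of gilt 803 called 1 member, 0 without granulosa-rich libraries, where TET1 turned to -0.457, and 0 to 1 when each gilt was left out (0 without gilt 205). It was not run in DESeq2 or limma, and without gilt 803 it has no value. Leaving out the granulosa-rich libraries also changed the calls over all genes: the gilt test then called 14 genes in place of 339. That step took away 12 of the 20 oocytes of gilt 803 and its stage 4 sum, which left 18 sums. The loss of libraries and the granulosa content cannot be told apart here. The contrast of gilt 803 and the 2 alternatives that leave out 1 oocyte were chosen after seeing the data. The sparse counts, with each member at 0 in 15 to 33 of 55 oocytes, limit what differences could be detected.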
